A study of Mus musculus with 51 samples.

Results

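The set described here is the nuclear-encoded subunits of the oxidative phosphorylation machinery, measured in sorted CD8+ T cells from mouse mammary tumors and spleen. Members were taken by gene symbol from both deposited tables: Nduf genes of the a, b, c, s and v series (complex I), Sdha to Sdhd (complex II), Uqcr genes (complex III), Cox4 to Cox8 genes with a letter suffix (complex IV) and Atp5 genes (complex V), without pseudogene symbols. Members made up 64 of the 10560 genes of the untreated table, of which 28 belonged to complex I, 4 to complex II, 8 to complex III, 10 to complex IV and 14 to complex V. In the table of mice given immune checkpoint blockade (ICB) 76 of 13458 genes were members. All 64 genes of the untreated table were also in the ICB table, and 12 were in the ICB table alone: Atp5g2, Atp5l, Atp5s, Cox5a, Ndufa1, Ndufb3, Ndufb4, Ndufb6, Ndufc1, Ndufc2, Ndufs5 and Ndufs6. The symbols are older ones, in which Atp5f1 is subunit b, Atp5o is the oligomycin sensitivity protein and Atp5d is subunit delta of ATP synthase. Ndufa4 was kept with complex I because its name puts it there, although it is now regarded as a complex IV subunit. Atp5s and Atp5sl match the symbol rule but are not regarded as structural subunits of the enzyme.

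The study profiled 51 libraries of 18 groups by QuantSeq, which reads the 3' ends of mRNAs. The tumors came from AT3-OVA, a mouse mammary carcinoma line that carries the model antigen ovalbumin, and CD8+ T cells were sorted by the surface proteins CD103 and CD69, which mark T cells that stay in tissue. CD103+CD69+ cells (here DP) were taken from untreated mice at weeks 1, 2, 4 and 6, with 3, 4, 3 and 3 libraries. CD103-CD69+ cells (SP) gave 3, 3, 2 and 3 libraries, and CD103-CD69- cells (DN) gave 2, 3, 3 and 2. Untreated control spleen gave 3 libraries each of CD8+ T cells labelled Naive, CM and EM, letters usually read as central memory and effector memory. The ICB group, taken on day 40, had 3 DP, 3 SP and 2 DN libraries, and the labels name no antibody. The labels give the spleen samples the same cell line and the same tumor-infiltrating cell type as the tumor samples, so whether the spleens came from tumor-bearing mice is not clear. They do not say whether replicates are separate mice or pools, so the p-values below measure only the spread between these samples, which may be technical.

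Oxidative phosphorylation makes ATP in the inner mitochondrial membrane. Complexes I and II pass electrons from NADH and succinate to ubiquinone, complex III passes them to cytochrome c, and complex IV passes them to oxygen. Complexes I, III and IV pump protons, and complex V, the ATP synthase, lets them back to make ATP. Most subunits are encoded in the nucleus, but a core of complexes I, III, IV and V is encoded in mitochondrial DNA; complex II is nuclear throughout. Resting naive T cells rely largely on oxidative phosphorylation, activated T cells add glycolysis and build mitochondria, and CD8+ T cells in tumors have often been described with impaired mitochondria.

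The deposited values were read as log2, and every difference below is a log2 difference between group means with its standard error (SE). In the untreated table the values of a gene are not its abundance: 49 of the 64 members lay below 5.50, the 25th percentile of the gene means, whereas 2 of the 76 members lay below that percentile in the ICB table. The median mean value of the members was 3.61 against 8.3 for all genes of the untreated table, and 9.18 against 8.36 in the ICB table. Levels were therefore compared between groups within a gene, never between genes or between tables. Many of these genes have processed pseudogene copies, and how the counting shared reads between near-identical copies is not given in the sources used here. Because these are bulk samples, fewer cells of a type and less RNA per cell cannot be told apart. Genes of the sort were read against the labels within each gene, since their levels do not show presence. Cd8a, a chain of the CD8 receptor, had a mean of 8.33 in DP cells of week 1 and of 9.41 to 10.37 in the other untreated groups. Itgae, which encodes CD103, had means of 14.43 to 15.57 in DP cells of weeks 2 to 6. Over weeks 1 to 6 its means were 13.01 to 14.23 in SP and 11.23 to 12.90 in DN cells. Within week 1 the means were 13.99 in DP, 13.18 in SP and 12.90 in DN cells, with overlap between libraries. That order followed the labels. DP cells of week 1 were below the SP means of weeks 2 and 4, and Naive spleen cells were highest at 16.05. Cd69 in DP cells of week 1 ran from -1.28 to 0.38, so 1 library labelled CD69+, replicate 3, lay below both DN libraries of week 1 (-0.57 and -0.52). The Cd69 mean of DP cells of week 1 was -0.31, above DN (-0.55) and below SP (0.31) of that week. Against DN cells the departure of Cd69 from the label thus rested on 1 library. Every week 1 result on DP cells rests on the 3 DP libraries of week 1. DP libraries of week 1 were lowest in T cell markers, with a mean deviation of -0.65 over 18 genes, against -0.06 in DN libraries of week 1. They were highest in the 6 measured of 11 epithelial markers, with 2.15 to 3.26, where SP of week 1 had 1.59 to 2.39 and DN of week 1 had -1.61 to -0.75. Library codes in the labels also differed by group: all DN libraries had codes of 46 to 75, all spleen libraries and most DP and SP libraries had codes of 5 to 42. What the codes stand for is not given, so group and code range can be separated only in part.

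Promoter stretches are printed first because respiratory chain genes share few control elements. The short lines were picked from members that hold a match, and all but Ndufa11 come up again below. In RefSeq promoter windows (GRCm38.p6, 250 bases before to 50 after the gene start), 62 of the 76 members could be matched. The motif of nuclear respiratory factor 1 (NRF1), a palindrome shown in capitals in the Ndufa11 line with any base allowed after the A of the left arm, was found in 17 of them, or 27.4%, against 12.4% of the 7684 matched genes of the untreated table. Letters of the ETS family, CCGGAAG, read on both strands, were in 25.8% of the members and 22% of the table's genes. Letters of YY1, AAGATGGCG, also read on both strands, were in 11.3% of the members and 4.02% of the table's genes. NRF1 letters were found in 7 of 32 matched members of complex I, 2 of 3 of complex II, 1 of 5 of complex III, 1 of 9 of complex IV and 6 of 13 of complex V. A match is a description and not a bound site. Each line below gives 30 bases on the gene's strand, 5′ to 3′, with the match in capitals.

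Ndufa11, complex I, NRF1 letters, chr17:56717692-56717721, plus strand: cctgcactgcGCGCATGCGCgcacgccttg

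Sdha, complex II, NRF1 letters, chr13:74350276-74350305, minus strand: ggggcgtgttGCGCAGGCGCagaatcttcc

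Sdhd, complex II, ETS letters read on the other strand, chr9:50603877-50603906, minus strand: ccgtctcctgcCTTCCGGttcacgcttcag

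Uqcr11, complex III, ETS letters, chr10:80406869-80406898, minus strand: ttctctcctccCCGGAAGtagatgtcaatg

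Cox6a1, complex IV, NRF1 letters, chr5:115349056-115349085, minus strand: cggataaagtGCGCAGGCGCtggagttcct

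Atp5h, complex V, NRF1 letters, chr11:115420041-115420070, minus strand: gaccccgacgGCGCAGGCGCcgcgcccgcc

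The matches lay 46 to 141 bases before the start, counted from the first base of each match, from Sdhd (46) to Atp5h (141). The stretch of Sdha reached 5 bases into its first exon and the others touched no exon. The next pair are the 100 bases before the start of Cox8a and Cox7a2l, the complex IV members that stood at opposite ends in the comparison of tumor with spleen below, and neither printed stretch holds a whole match to the 3 motifs. The full window of Cox8a held the ETS letters in 2 places, 1 across the start, where the printed bases end, and 1 after it. Cox8a is counted among the ETS members. The window of Cox7a2l held no match. Its RefSeq start lies inside the GENCODE M21 span of the gene (chr17:83501918-83517330, minus strand), so the bases before that span were not searched.

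Cox8a, chr19:7217617-7217716, minus strand: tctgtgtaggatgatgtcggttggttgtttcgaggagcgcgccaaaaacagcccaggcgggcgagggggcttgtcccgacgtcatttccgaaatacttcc

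Cox7a2l, chr17:83514334-83514433, minus strand: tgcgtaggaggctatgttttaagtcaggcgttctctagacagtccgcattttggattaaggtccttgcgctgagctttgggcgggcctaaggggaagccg

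Across the untreated groups the members as a set moved little. For each library the median over the 64 members of the deviation from each gene's mean was taken. Its group mean was -0.11 in Naive, -0.09 in CM and -0.13 in EM spleen cells. In tumors it ran from -0.21 in DN cells of week 1 to 0.13 in DP cells of week 1. From week 2 on it stayed between -0.05 and 0.12 in DN, SP and DP cells. The libraries of DN week 1 (-0.24 to -0.18) lay below every spleen library, and those of DP week 1 (0.08 to 0.18) lay above. Single complexes departed further: complex IV had a mean of -0.41 in DN week 1, -0.27 in Naive cells and 0.21 in SP week 6.

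**Figure D1:**
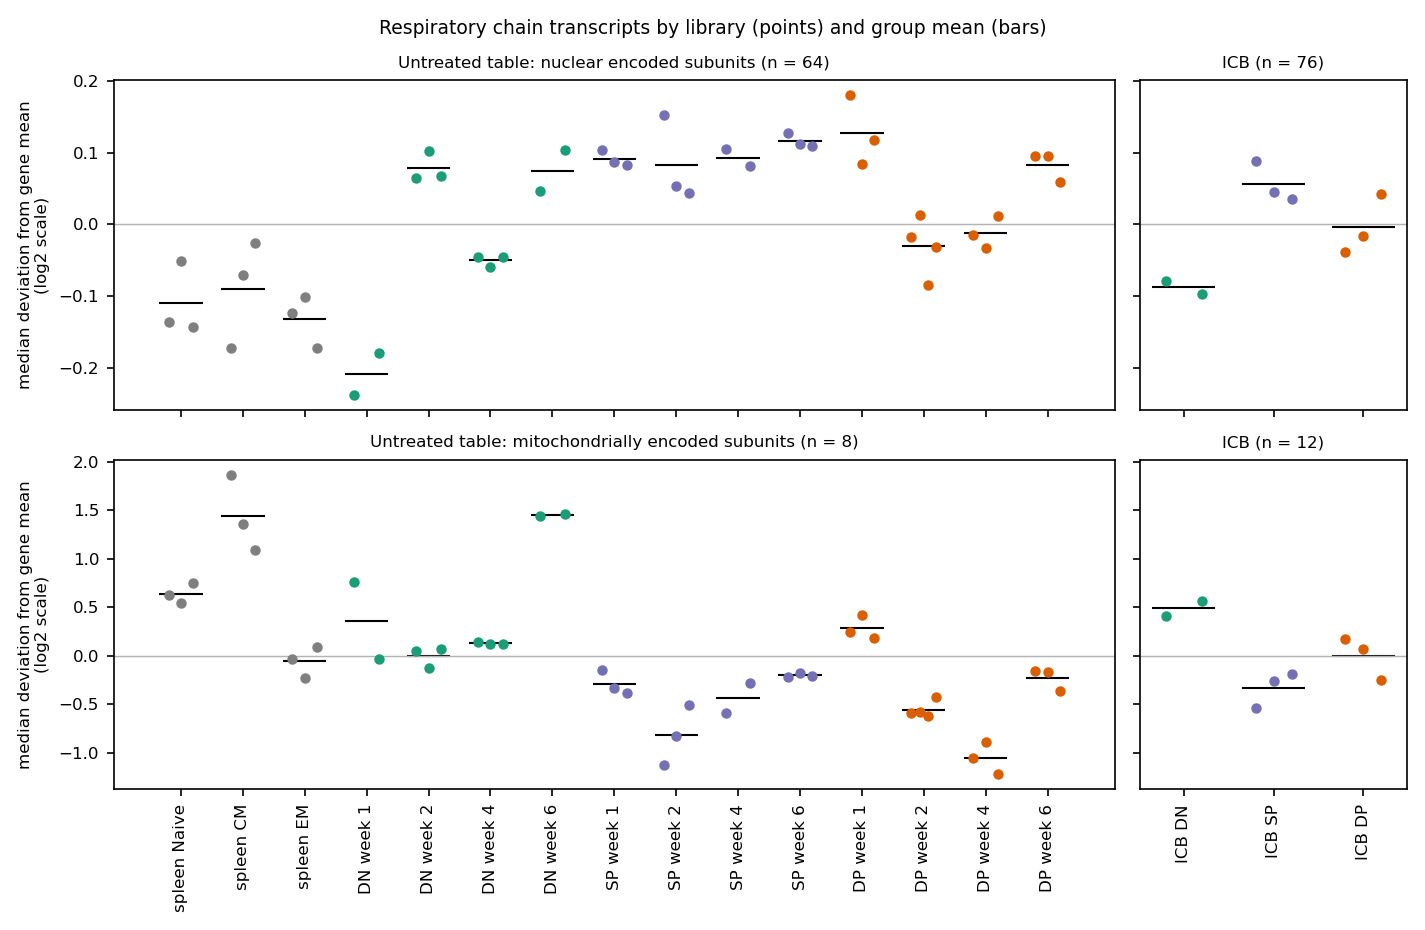
Median deviation from each gene's mean (log2) in every untreated library, by group; the upper panel shows the 64 nuclear-encoded members and the lower the mitochondrially encoded subunits, with 1 point a library. In the upper panel DN libraries of week 1 sit lowest (-0.24 to -0.18) and spleen libraries below most tumor libraries.

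**Figure D2:**
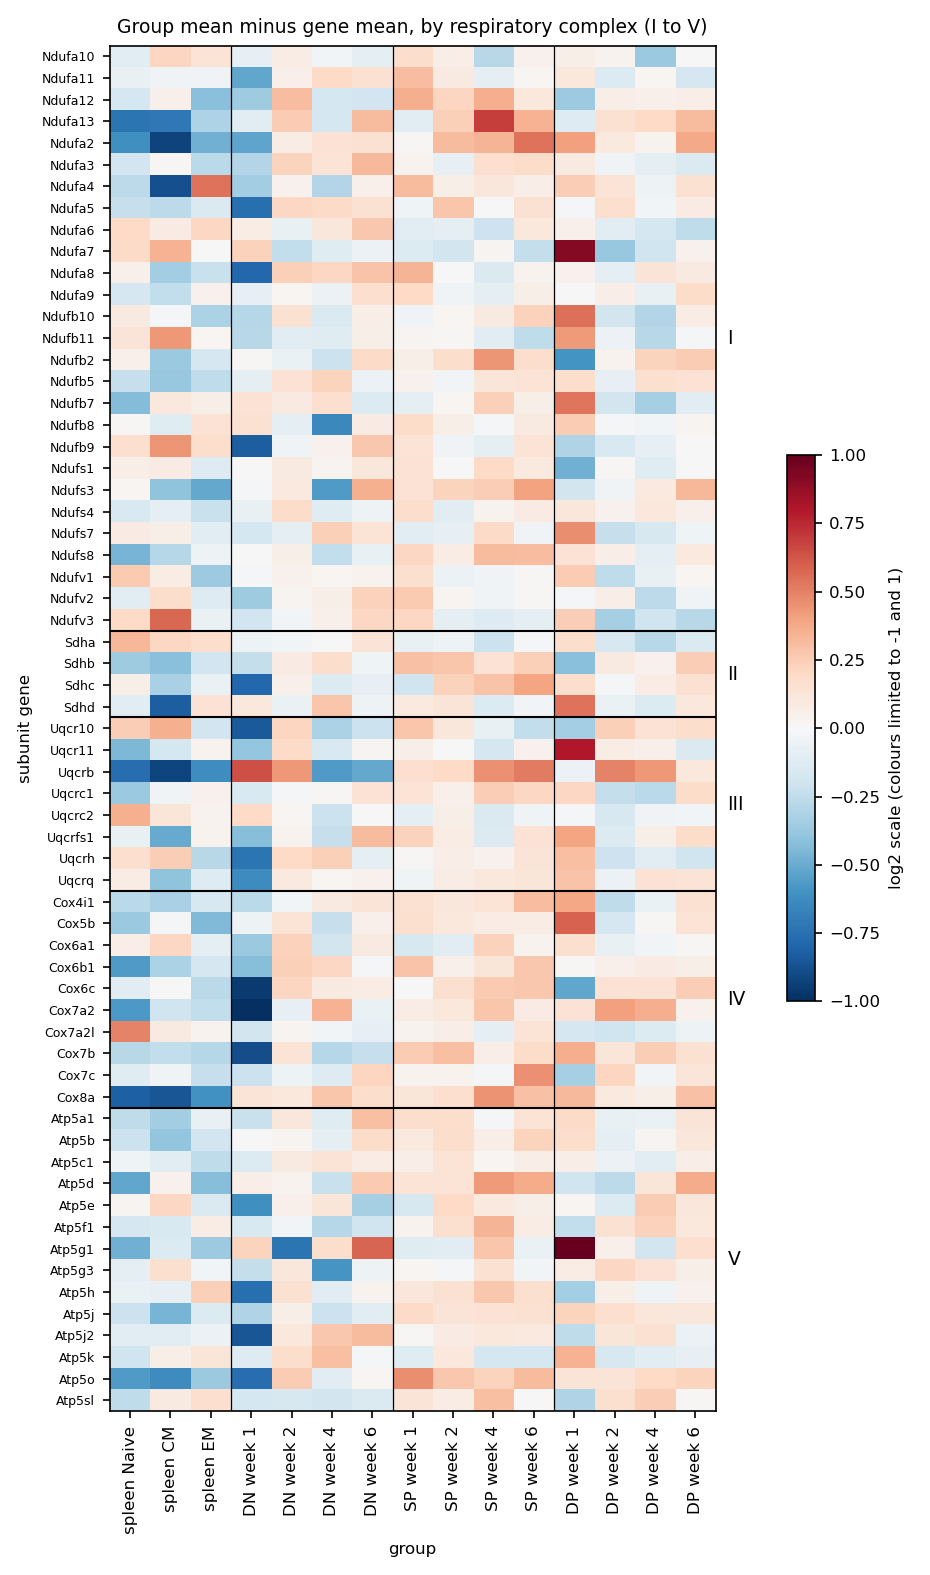
Mean deviation from each gene's mean (log2, colours limited to -1 and 1) of 63 of the 64 members in the 15 untreated groups, with genes ordered by complex. Most cells are pale, DN week 1 is the bluest tumor column, and Cox8a, Ndufa13 and Atp5o are low in the 3 spleen groups.

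Tumor cells of weeks 2 to 6, with the weeks weighted equally, were compared with Naive spleen cells to ask which subunits differ once CD8+ T cells are in a tumor. The 3 comparisons share the 3 Naive libraries, so they are given side by side. In DP cells 17 members rose and 5 fell, in SP cells 23 rose and 4 fell, and in DN cells 15 rose and 3 fell (limma, adjusted p below 0.05). The members called were 34.4%, 42.2% and 28.1%, whereas of all genes 47.2%, 45.2% and 36.4% were called, a larger share in each case. Higher calls made up 26.6%, 35.9% and 23.4% of the members and 22.2%, 23% and 18.9% of all genes; lower calls made up 25%, 22.2% and 17.5% of all genes. The median difference of the members was 0.15, 0.23 and 0.15, against -0.05, -0.02 and -0.02 over all genes, and 45, 50 and 42 of the 64 were above 0. Complexes II, III and IV each held members that rose beside members that fell in all 3 comparisons. With the library code range as a term the calls numbered 22, 27 and 8, and only the DN count moved.

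Complex I held 3 higher and 2 lower calls of 28 in DP, 6 and 1 in SP, and 5 and 0 in DN cells, with medians of 0.02, 0.09 and 0.13. Ndufa13, an accessory subunit also known as GRIM-19, had 2.33, 2.73 and 2.27 in the Naive libraries and from 2.87 to 3.91 with a median of 3.44 in the 26 tumor libraries. All 26 lay above all 3 Naive libraries. Its difference was 0.95 ± 0.20 in DP (adjusted p = 0.0006), 1.15 ± 0.21 in SP (adjusted p = 0.00013) and 0.86 ± 0.21 in DN cells (adjusted p = 0.0027). The gene lies at chr8:69894180-69902558 on the minus strand (GRCm38, GENCODE M21). Ndufa2, another accessory subunit, had 1.99, 2.42 and 1.89 in Naive cells and 2.44 to 3.38 in tumor cells, again with 26 of 26 above; it rose by 0.78 ± 0.21 in DP and 1.01 ± 0.22 in SP cells. Ndufs8, an iron-sulfur core subunit, was above all Naive libraries in 25 of 26 and was called in DP and SP cells. Ndufv3, a small subunit beside the NADH-oxidising one, had 2.54, 2.56 and 2.58 in Naive cells and 1.87 to 2.29 in DP cells, with no overlap, and fell by 0.47 ± 0.11 there (adjusted p = 0.0013). Ndufv1, the subunit that oxidises NADH, had 5.38, 5.30 and 5.43 in Naive cells, and all 26 tumor libraries lay below, between 4.72 and 5.24, yet only the DP difference of -0.36 ± 0.12 was called (adjusted p = 0.016). That call was lost under some of the alternatives. Ndufs1, a core subunit, was not called in any of the 3 comparisons, with differences of -0.11, 0.03 and 0.01 in DP, SP and DN order.

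Complex II, whose 4 subunits also make up succinate dehydrogenase of the citrate cycle, had subunits that moved apart. Sdha, the flavoprotein that oxidises succinate, had 4.63, 4.70 and 4.61 in Naive cells. It had lowest, median and highest values of 4.02, 4.13 and 4.25 in DP, 4.08, 4.27 and 4.32 in SP, and 4.23, 4.33 and 4.47 in DN cells. All 26 tumor libraries were thus below all Naive libraries. They were also below all EM libraries (4.50, 4.48 and 4.49). The difference from Naive was -0.52 ± 0.07 in DP (adjusted p = 4.2e-06), -0.42 ± 0.07 in SP (adjusted p = 9.8e-05) and -0.29 ± 0.07 in DN cells (adjusted p = 0.0034). The DN call of Sdha was lost with only the compared groups in the fit (adjusted p = 0.0512). Sdhb, the iron-sulfur subunit that takes the electrons on from Sdha, had 6.19, 6.27 and 6.14 in Naive cells and 6.31 to 7.01 in tumor cells, all 26 above. It rose by 0.48 ± 0.14 in DP (adjusted p = 0.0092), 0.57 ± 0.15 in SP (adjusted p = 0.0034) and 0.43 ± 0.15 in DN cells (adjusted p = 0.029). The DN call of Sdhb was lost with the code range as a term (0.31, adjusted p = 0.325), with week 1 included (0.0615), and without Naive replicate 1 (0.0756), Naive replicate 3 (0.0934) or DN week 6 replicate 2 (0.068). Of the membrane anchors, neither Sdhc nor Sdhd was called.

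Complex III had 2 higher and 1 lower call of 8 in each of the 3 comparisons, and medians of 0.05, 0.06 and 0.05. Uqcrb, a small subunit near the ubiquinone site, had 8.45, 9.40 and 8.55 in Naive cells, so 1 Naive library stood near the tumor values. It reached 9.17 to 10.22 in DP and 9.34 to 10.28 in SP cells, where 9 of 10 and 7 of 8 libraries were above all Naive ones, but only 3 of 8 DN libraries were. Uqcrb rose by 1.11 ± 0.22 in DP (adjusted p = 0.00037) and 1.15 ± 0.23 in SP cells (adjusted p = 0.00036). Uqcrc1 and Uqcrc2, the paired core proteins, went opposite ways. Uqcrc2 had 1.52, 1.29 and 1.53 in Naive cells and 0.76 to 1.22 in tumor cells, all 26 below, and fell by 0.43 ± 0.10 in DP, 0.40 in SP and 0.42 ± 0.11 in DN cells. Uqcrc1 was above all Naive libraries in 20 of 26, rose by 0.54 ± 0.14 in SP (adjusted p = 0.0042) and by 0.42 in DN cells, and was not called in DP cells. Uqcrfs1, the Rieske iron-sulfur protein, had differences of 0.11, 0.10 and 0.11 and was not called. Uqcr11 rose by 0.45 in DP and 0.47 in DN cells. The DN calls of Uqcr11 and Uqcrc1 were lost with the code range as a term (adjusted p = 0.202 and 0.369). They were also lost with only the compared groups (0.0783 and 0.0775), and without Naive replicate 1 (0.148 and 0.0837) or 3 (0.177 and 0.137), among others. The DN call of Uqcrc2 was lost with the code range as a term (-0.33, adjusted p = 0.132).

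Complex IV had the highest median of the 5 complexes in each comparison, 0.33 in DP, 0.46 in SP and 0.28 in DN cells. Of its 10 members 6 rose in DP, 7 in SP and 3 in DN cells, and 1 fell in each. Cox8a, a small membrane subunit, had 0.28, 0.71 and 0.33 in Naive cells, 0.14, 0.41 and 0.65 in CM and 0.64, 0.80 and 0.51 in EM cells. In tumors its lowest, median and highest values were 1.22, 1.40 and 1.75 in DP, 1.39, 1.49 and 1.80 in SP, and 1.29, 1.48 and 1.60 in DN cells. All tumor libraries lay above all spleen libraries, while the tumor subsets overlapped one another, as did the spleen groups. Cox8a rose by 0.96 ± 0.13 in DP (adjusted p = 2.5e-06), 1.12 ± 0.13 in SP (adjusted p = 5.6e-07) and 1.00 ± 0.13 in DN cells (adjusted p = 3.7e-06). The gene lies at chr19:7215153-7217616 on the minus strand of the same build. Cox6b1, which joins the 2 monomers of the enzyme, had 2.02, 2.20 and 2.08 in Naive cells and 2.55 to 3.12 in tumor cells, all 26 above, and rose by 0.63 ± 0.12, 0.71 ± 0.12 and 0.71 ± 0.12 in DP, SP and DN cells. Cox7a2 rose by 0.85 ± 0.16, 0.73 ± 0.16 and 0.64 ± 0.16, and 25 of 26 libraries were above Naive. Its relative Cox7a2l, which takes part in joining complexes III and IV into supercomplexes, did the opposite. Cox7a2l had 3.29, 3.65 and 3.34 in Naive cells and 2.62 to 3.23 in tumor cells, all 26 below, and fell by 0.63 ± 0.15 in DP (adjusted p = 0.0021), 0.46 ± 0.16 in SP (adjusted p = 0.021) and 0.52 ± 0.16 in DN cells (adjusted p = 0.013). Without Naive replicate 2, its highest Naive library, the SP and DN calls of Cox7a2l were lost (adjusted p = 0.118 and 0.0768). The DN call of Cox7a2l was also lost with the code range as a term (-0.58, adjusted p = 0.0783). Cox4i1, the regulatory subunit, rose in SP cells by 0.46 ± 0.14 (adjusted p = 0.011), and Cox6c rose by 0.29 ± 0.11 in DP and 0.33 in SP cells, where both calls depended on the setting. Cox6a1 had differences of -0.10, -0.02 and -0.02, none called. The alternative isoforms Cox4i2, Cox6a2, Cox6b2, Cox7a1 and Cox8b were among the genes of neither the untreated nor the ICB table.

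Complex V had no lower call: 5 of 14 members rose in DP, 7 in SP and 4 in DN cells, with medians of 0.24, 0.35 and 0.20. All 14 differences were above 0 in DP and in SP cells, and 11 of 14 in DN cells. Atp5o, part of the stalk that holds the catalytic head, had 7.09, 7.43 and 7.22 in Naive cells and 7.69 to 8.27 in tumor cells. All 26 libraries lay above every Naive and every EM library. Atp5o rose by 0.75 ± 0.12 in DP (adjusted p = 3.5e-05), 0.83 ± 0.12 in SP (adjusted p = 1.5e-05) and 0.62 ± 0.12 in DN cells (adjusted p = 0.00054). Atp5d, of the central stalk, had 3.49, 3.64 and 3.52 in Naive cells and was higher in 25 of 26 tumor libraries, by 0.60 ± 0.14 in DP and 0.83 ± 0.14 in SP cells. Of the catalytic head, Atp5a1 rose by 0.25, 0.35 and 0.35, and Atp5b rose in SP cells alone of the 3 calls, by 0.37 ± 0.10 (adjusted p = 0.005). The ring subunit c is made from several genes with the same mature product. Atp5g1 rose in SP cells by 0.51 ± 0.21 (adjusted p = 0.049), a call that most alternatives did not keep, and Atp5g3 had 0.23, 0.13 and -0.08, none called.

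**Figure D3:**
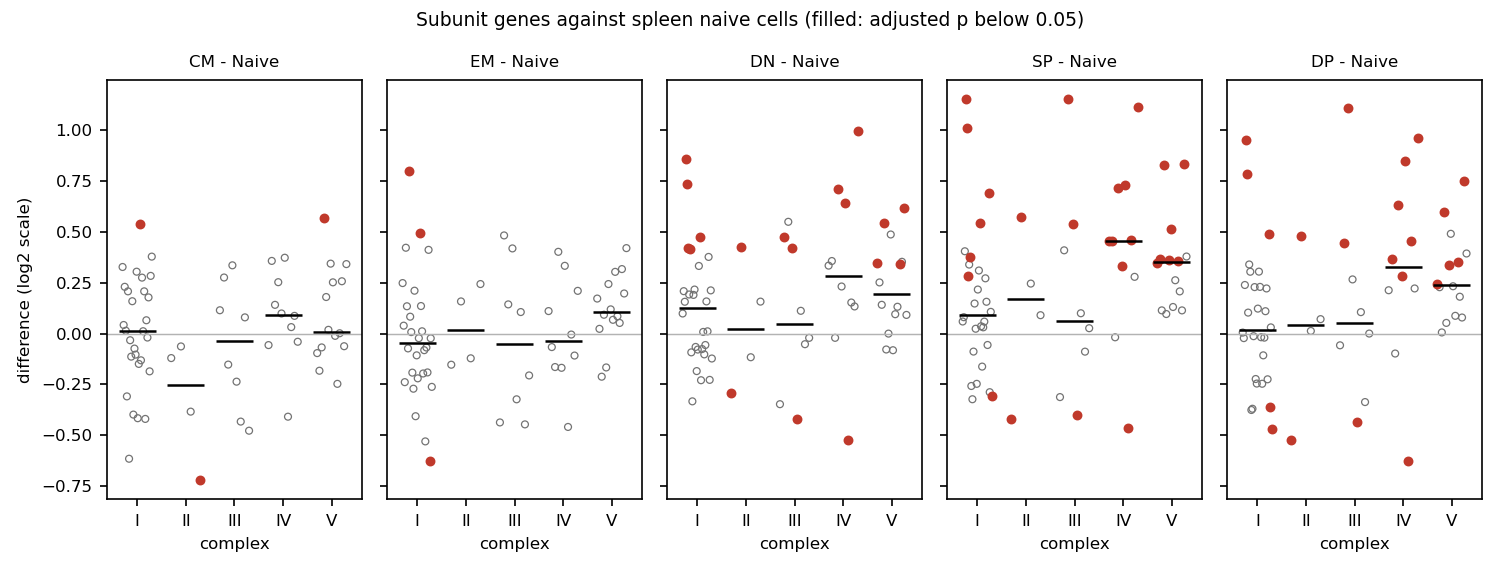
Difference from Naive spleen cells (log2) of each member, by complex, for CM, EM and the 3 tumor subsets of weeks 2 to 6; filled points passed an adjusted p of 0.05 and bars are medians. The tumor panels reach above 1 for Uqcrb (DP and SP) and for Cox8a, Ndufa2 and Ndufa13 (SP), with complex IV and V medians highest.

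**Figure D4:**
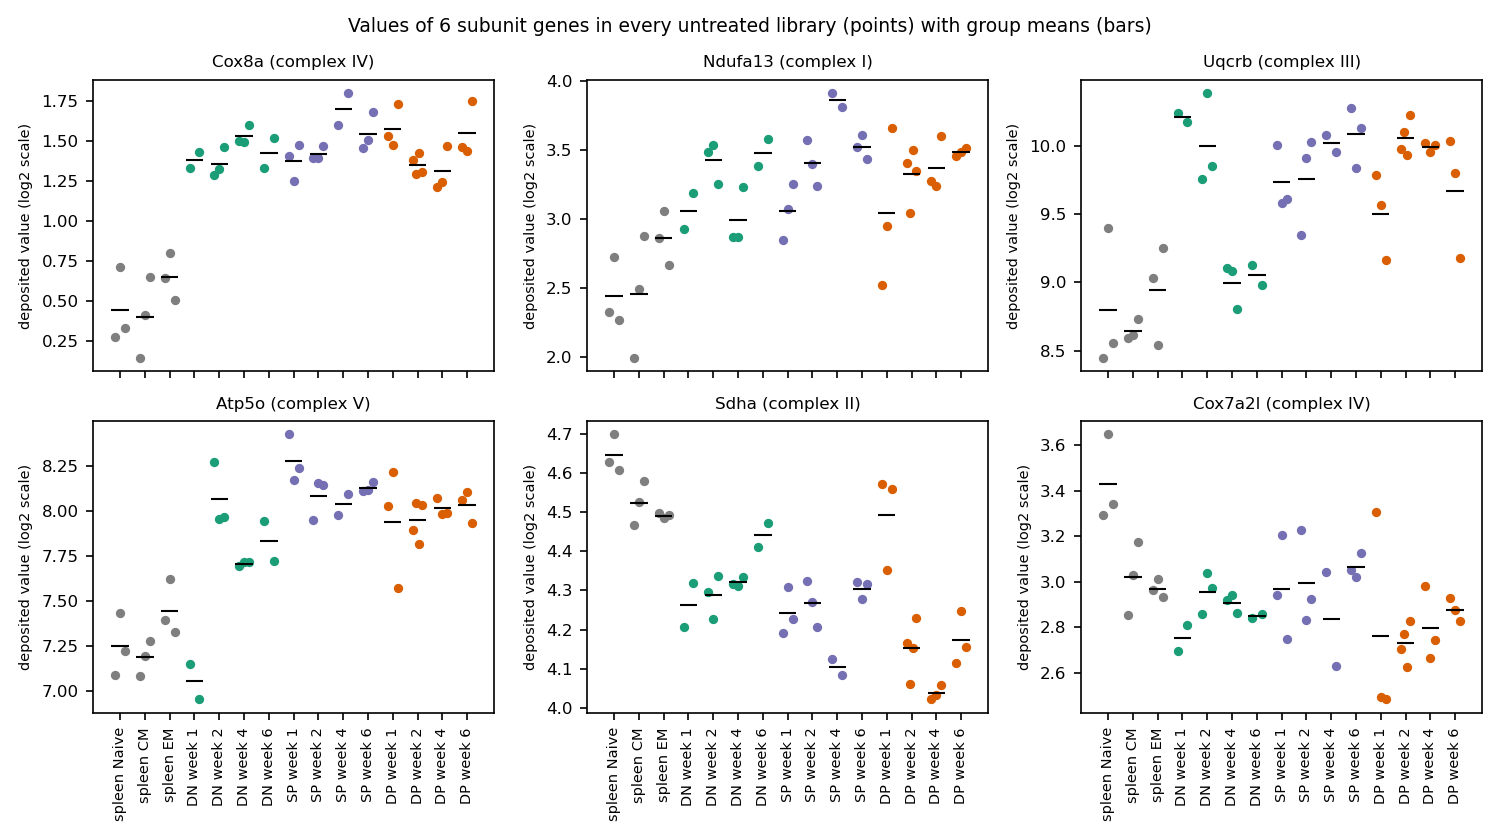
Deposited value (log2) of Cox8a, Ndufa13, Uqcrb, Atp5o, Sdha and Cox7a2l in every untreated library, with 1 point a library and lines at group means. Cox8a, Ndufa13 and Atp5o are above Naive in all 26 tumor libraries of weeks 2 to 6, and Sdha and Cox7a2l below.

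These differences from Naive moved with other things that were measured. All 20 proliferation genes listed rose in DP, SP and DN cells against Naive, with medians of 2.53, 2.46 and 2.15, and 4 of the 6 measured epithelial markers rose in each, with medians of 1.66, 1.99 and 2.53. The part of either in the member differences was not tested. Transcript length was also read, for SP against Naive cells. Its rank correlation with the difference was -0.11 over the members and -0.08 over all genes. Of 296 genes with transcripts of 600 to under 1000 bases, 59.5% had a difference above 0, against 48.4% over all lengths. Of the 20 members in that class 80% did. Of the members under 600 bases 58.3% were above 0. The longer classes had 82.6% (1000 to under 2000 bases), 83.3% (2000 to under 4000) and 100% of 2 members (4000 and over).

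Against EM spleen cells, which are themselves antigen-experienced, fewer members were called. In DP cells 11 rose and 1 fell, in SP cells 16 rose and 1 fell, and in DN cells 10 rose and 1 fell. That is 18.8%, 26.6% and 17.2% of the members, against 29.2%, 30.3% and 19.5% of all genes; the 3 comparisons share the EM libraries. Over all genes 14%, 16.1% and 10.6% were called higher and 15.2%, 14.2% and 8.9% lower, and the median member differences were 0.13, 0.23 and 0.17. Complex IV again had the highest medians, 0.38, 0.39 and 0.27. Cox8a rose by 0.75 ± 0.13 in DP (adjusted p = 0.00014), 0.90 in SP and 0.79 in DN cells. Uqcrb rose by 0.96 in DP and 1.01 in SP cells. Ndufs3, a core subunit of complex I, had 5.15, 5.69 and 4.88 in EM cells and rose by 0.64, 0.80 and 0.47, although EM replicate 2 overlapped the tumor values. Cox6c had 5.07, 5.13 and 5.05 in EM cells and at least 5.20 in each of the 26 tumor libraries, and rose by 0.45, 0.50 and 0.40. Sdha fell by 0.37 in DP and 0.27 in SP cells, and Ndufb8 fell by 0.37 in DN cells. The Ndufb8 call was lost in 10 settings, among them the code range as a term (adjusted p = 0.109) and leaving out any EM library (0.0893, 0.174 and 0.0608). The DN call of Cox6c was also lost with the code range (0.14) and without EM replicate 1 (0.0644) or 3 (0.0752). Without EM replicate 3 the DP count dropped from 12 to 6 and the DN count from 11 to 3, without EM replicate 1 to 7 and 3, and without DN week 6 replicate 2 the DN count was 7.

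Within the spleen the members hardly separated the memory cells from Naive cells, although many other genes did. EM cells had 2 higher and 1 lower member, where 24.6% of all genes were called (12.6% higher, 12% lower), and CM cells had 2 higher and 1 lower, where 18.8% of all genes were called (10.1% higher, 8.7% lower). The median member difference was 0.02 in EM and 0.01 in CM cells. Ndufv1 had 4.69, 4.91 and 4.64 in EM against 5.38, 5.30 and 5.43 in Naive cells, and fell by 0.63 ± 0.15 (adjusted p = 0.0035). Ndufa4 had -8.21, -8.98 and -7.93 in EM against -9.28, -8.95 and -9.28 in Naive cells and rose by 0.80 ± 0.29 (adjusted p = 0.046), with overlap. Ndufb7, an accessory subunit of complex I, rose in both, by 0.49 ± 0.17 in EM and 0.54 ± 0.17 in CM cells. Sdhd had 2.84, 2.64 and 2.49 in CM against 3.41, 3.49 and 3.23 in Naive cells and fell by 0.72 ± 0.23 (adjusted p = 0.032). Atp5d had 4.14, 4.12 and 4.09 in CM cells, all above Naive, and rose by 0.57 ± 0.17 (adjusted p = 0.025). These few calls depended on single libraries: leaving out 1 library at a time gave 1 to 6 calls for EM and 0 to 2 for CM. Removing CM replicate 2 left 0, and removing any Naive library or CM replicate 1 left 1. For EM, removing Naive replicate 2 gave 6, and removing Naive replicate 3, EM replicate 1 or EM replicate 3 left 1.

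The tumor subsets were compared with one another over weeks 2 to 6, which asks whether respiratory genes follow the residency markers. Between DP and SP cells no member was called (0 of 64), where 0.417% of all genes were (0.104% higher, 0.312% lower), and 8 members had an unadjusted p below 0.05. The count was 0 under every alternative except full design degrees of freedom, which gave 3. The member nearest to a call was Ndufb7, at -0.31 ± 0.10 (adjusted p = 0.15). Only 11 of the 64 differences were above 0, with a median of -0.08 against -0.03 over all genes. Against DN cells, DP cells had 3 higher and 3 lower members (9.38%), where 23.3% of all genes were called (9.8% higher, 13.5% lower), and the median difference was -0.02. SP cells had 2 higher members and none lower (3.12%), where 17% of all genes were called (8.33% higher, 8.64% lower), with a median of 0.05. In both contrasts with DN cells the share of members called was below that of the whole table. At a table share of 0.417%, a count of 0 of 64 between DP and SP cells is no result about the members. Markers of other cells moved with the DN contrasts. In DP against DN cells 3 of 3 stromal and endothelial markers (median -1.21), 2 of 2 erythroid and platelet markers (median -2.95), 2 of 6 epithelial and 6 of 18 T cell markers were lower, while 3 of 10 myeloid, 3 of 5 CD4 and regulatory T cell and 2 of 18 T cell markers were higher. In SP against DN cells 5 of 18 T cell markers were higher and 1 lower, and 2 of 5 CD4 and regulatory T cell markers were higher. Their part in the member differences was not tested.

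The few members called between subsets were not of 1 complex. Atp5f1, the stalk subunit b, had lowest, median and highest values of 4.06, 4.21 and 4.38 in DP, 4.11, 4.19 and 4.42 in SP, and 3.74, 3.83 and 4.17 in DN cells, with slight overlap. It was higher than in DN cells by 0.34 ± 0.07 in DP (adjusted p = 0.00097) and 0.36 ± 0.07 in SP (adjusted p = 0.001). Uqcrb was higher by 0.56 ± 0.16 in DP (adjusted p = 0.017) and 0.60 ± 0.17 in SP (adjusted p = 0.019). Its DN values were 9.75, 10.38 and 9.85 at week 2, 9.10, 9.08 and 8.81 at week 4, and 9.12 and 8.98 at week 6, so only the later DN libraries were low. Sdha was lower in DP than in DN cells by 0.23 ± 0.05 (adjusted p = 0.0032), Ndufv3 by 0.35 ± 0.08 (adjusted p = 0.0033) and Ndufa3 by 0.32 ± 0.08 (adjusted p = 0.0065). Atp5g3 was higher by 0.31 ± 0.10 (adjusted p = 0.03). With the code range as a term, 2 of the 6 DP calls and 1 of the 2 SP calls were left: Differences then were 0.45 and 0.48 for Uqcrb (adjusted p = 0.307 and 0.385), -0.20 for Sdha (0.132), -0.34 for Ndufv3 (0.0978) and 0.23 for Atp5g3 (0.416). They kept their direction and most of their size while the test no longer passed. For SP against DN cells, removing DN week 2 replicate 2 gave 4 calls and removing DN week 4 replicate 3 gave 5.

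At week 1 more members were called between subsets than over weeks 2 to 6. Over all genes the share called did not rise in the contrasts with DN cells, where weeks 2 to 6 had 23.3% (DP) and 17% (SP). DP cells had 25 members higher than DN cells and none lower (39.1%), where 22.7% of all genes were called (11.8% higher, 10.9% lower). SP cells had 14 higher than DN cells and none lower (21.9%), where 7.26% of all genes were called (5.48% higher, 1.78% lower). The median member difference was 0.41 in DP and 0.27 in SP cells, against 0.03 and 0.09 over all genes, and 51 and 54 of the 64 were above 0. Each complex took part: DP cells had 9 of 28 members of complex I higher, 1 of 4 of complex II, 4 of 8 of complex III, 5 of 10 of complex IV and 6 of 14 of complex V. Complex III had the highest medians, 0.66 in DP and 0.52 in SP cells.

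Cox7a2 had 0.44 and 0.89 in DN cells of week 1, 1.86, 1.85 and 1.88 in SP and 2.04, 1.84 and 1.91 in DP cells. DN cells lay below both other subsets, which overlapped each other, and it was higher by 1.27 ± 0.22 in DP (adjusted p = 0.00033) and 1.2 in SP cells. Cox7b, also of complex IV, had 4.26 and 4.89 in DN, 5.88, 5.67 and 5.59 in SP and 6.36, 5.93 and 5.18 in DP cells, and was higher by 1.25 ± 0.24 in DP and 1.14 in SP cells. Atp5o had 7.15 and 6.95 in DN, 8.42, 8.17 and 8.24 in SP and 8.03, 8.22 and 7.57 in DP cells, and was higher by 0.89 ± 0.17 in DP and 1.23 ± 0.17 in SP cells (adjusted p = 0.00074 and 0.00048). In complex III, Uqcrh, the hinge protein that helps dock cytochrome c1, had -1.27 and -0.49 in DN and -0.07 to 0.29 in DP cells, and was higher by 1.03 ± 0.22 there. Uqcr11 had 1.75 and 1.73 in DN and 3.05, 2.81 and 2.93 in DP cells, a difference of 1.19 ± 0.24. In complex I, Ndufa8 had 1.40 and 1.42 in DN, 2.65, 2.59 and 2.36 in SP and 2.49, 2.5 and 1.72 in DP cells. In complex II, Sdhc was the call, at 0.96 ± 0.28 in DP cells. The DN pair was low for each of these genes, and for Cox7a2 it lay below all 3 Naive libraries.

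Without DP week 1 replicate 3, the library low in Cd69, DP against DN cells had 23 calls. The week 1 contrasts rested on 2 DN libraries. Without DN week 1 replicate 1 the DP count fell from 25 to 7 and the SP count from 14 to 5. With only the compared groups in the fit, 1 member was called in DP and 8 in SP cells, and with the code range as a term 9 and 6. Shorter members tended to have the larger differences. The rank correlation of member difference with transcript length was -0.35 for DP and -0.24 for SP against DN cells. Over all genes it was -0.03 in both, and the part of length was not tested. Markers of other cells moved with the same contrasts: in DP cells 4 of 6 epithelial markers were higher than in DN cells (median 4.67; Epcam 4.54, Krt8 4.80, Krt19 5.19, Krt18 5.39), 4 of 10 myeloid markers were higher (median 0.67), and 10 of 18 T cell markers (median -0.61) and 11 of 20 proliferation genes (median -0.72) were lower. In SP cells 4 of 6 epithelial markers were higher (median 3.83) and 0 of 18 T cell markers were called. Their part in the member differences was not tested.

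DP and SP cells of week 1 also differed in 11 members, 6 higher and 5 lower in DP cells (17.2%), where 17.4% of all genes were called (5.92% higher, 11.5% lower), so the share was that of the table. Atp5g1 had 10.30, 10.73 and 10.60 in DP, 9.54, 9.38 and 9.21 in SP and 9.85 and 9.59 in DN cells, and was higher in DP than SP cells by 1.17 ± 0.25 (adjusted p = 0.003). Ndufa7 had 2.20, 1.87 and 2.42 in DP and 1.08, 1.14 and 1.09 in SP cells and was higher by 1.06 ± 0.21 (adjusted p = 0.0015). Sdhb was lower in DP cells, with 5.75, 6.5 and 6.15 against 6.72, 7.03 and 6.80, by 0.71. Ndufs1, the large iron-sulfur subunit of complex I, was lower by 0.63, but 1 DP library (4.51) lay within the SP range. Ndufa12 was lower by 0.72, Cox6c by 0.52 and Atp5h by 0.45. Here too 11 of 18 T cell markers and 14 of 20 proliferation genes were lower in DP cells. With only these groups in the fit no member was called, and without SP week 1 replicate 1, SP week 1 replicate 2 or DP week 1 replicate 3 the count was 7.

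Whether the subset differences of week 1 differed from those of weeks 2 to 6 was tested directly. The change was called for 25 members in DP against DN (23 more positive at week 1 and 2 less), where 25.8% of all genes were called (14.3% more positive, 11.4% less). It was called for 11 in SP against DN, all more positive, where 6.53% of all genes were called (5.07% more positive, 1.47% less). For DP against SP it was called for 7 members, 6 more positive and 1 less, where 14.7% of all genes were called (5.72% more positive, 9.02% less). Uqcrh changed by 1.32, Cox7a2 by 1.06 and Ndufa8 by 1.03 in DP against DN, and Ndufa8 by 1.40, Cox7a2 by 1.11 and Atp5o by 1.01 in SP against DN. Uqcrb changed the other way in DP against DN, by -1.26; its DN libraries of week 1 had 10.24 and 10.17. Without DN week 1 replicate 1 the counts were 12 and 3, and without SP week 1 replicate 1 the SP count was 7.

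**Figure D5:**
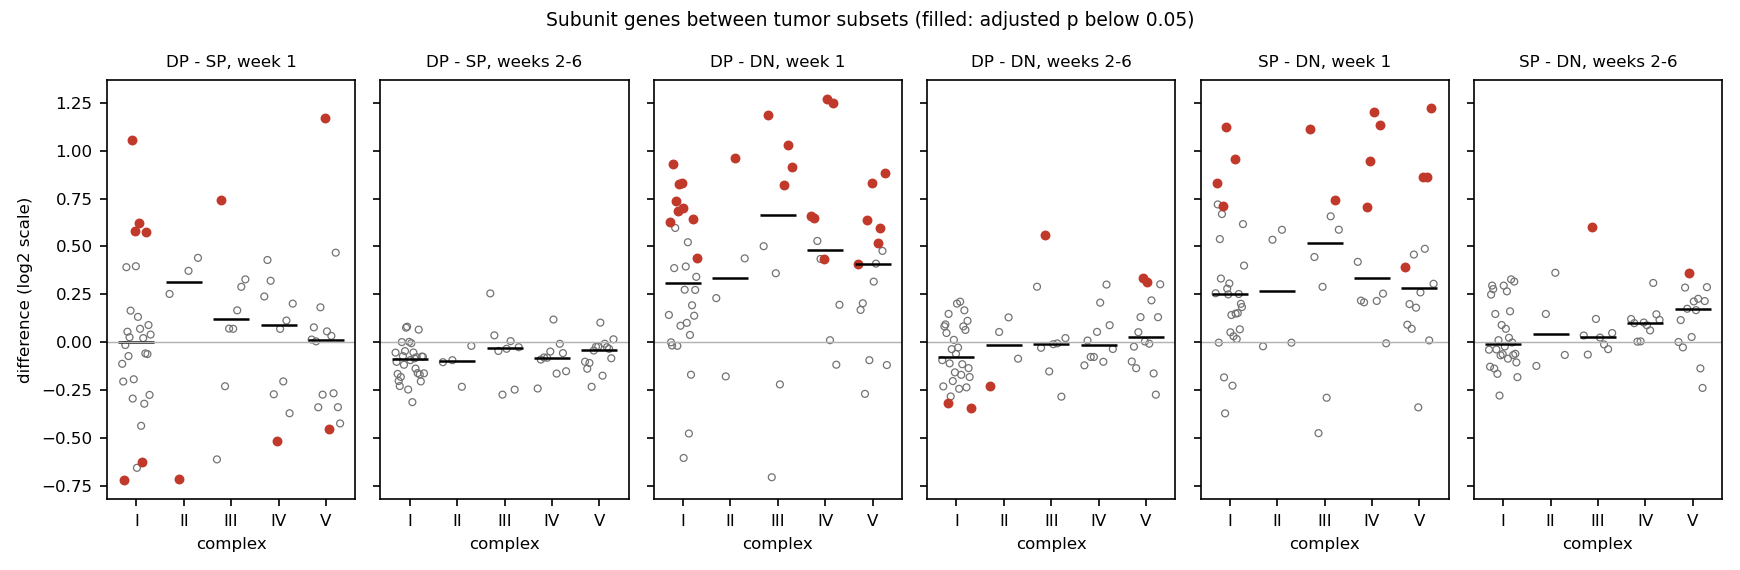
Difference between tumor subsets (log2) of each member by complex, for DP minus SP, DP minus DN and SP minus DN, at week 1 and over weeks 2 to 6; filled points passed an adjusted p of 0.05 and bars are medians. At week 1 the points of DP and SP minus DN lie mostly above 0 (25 and 14 called, all higher), and over weeks 2 to 6 they centre near 0.

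Tumor age was compared within each subset. Between week 2 and week 6 no member was called in DP cells, where 0.246% of all genes were (0.199% higher, 0.0473% lower), or in SP cells, where 0.644% were (0.492% higher, 0.152% lower). Unadjusted p-values below 0.05 numbered 5 and 0. The nearest were Atp5d in DP cells (0.63 ± 0.16, adjusted p = 0.081) and Cox7c in SP cells (0.42 ± 0.20, adjusted p = 0.417). Full design degrees of freedom called 3 members in DP cells, the replicate block called 1, and SP cells had 0 calls under every alternative. In DN cells 1 member rose, where 0.72% of all genes were called (0.53% higher, 0.189% lower): Atp5g1 had 8.26, 9.42 and 8.60 at week 2 and 10.15 and 10.00 at week 6, a rise of 1.32 ± 0.28 (adjusted p = 0.034). That call was lost without DN week 2 replicate 1, DN week 2 replicate 3 or either week 6 library.

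In ICB-treated mice few of the 76 members were called between subsets, in a table with 2 residual directions where the design has 5. With the design's degrees of freedom the counts for DP against SP, DP against DN and SP against DN would be 15, 31 and 31, and with only the compared groups in the fit DP against DN had 9. The ICB and untreated tables were deposited apart from each other with different gene sets, and treated mice are not compared with untreated ones. The group means of the member median were -0.09 in DN, 0.06 in SP and -0.00 in DP cells. DP against SP cells gave 0 calls, where 0.0372% of all genes were called (0.00743% higher, 0.0297% lower), with 7 members at an unadjusted p below 0.05, and the nearest was Atp5s at -0.56 ± 0.12 (adjusted p = 0.237). SP against DN cells gave 0 calls, where 3.83% of all genes were called (2.47% higher, 1.36% lower), with 10 unadjusted, and 55 of 76 differences were above 0. DP against DN cells gave 1 call, lower in DP, where 7.49% of all genes were called (4.47% higher, 3.02% lower). This was Cox7a2l, with 11.10 and 11.06 in DN, 10.78, 10.66 and 10.73 in SP and 10.58, 10.61 and 10.67 in DP cells. Both DN libraries lay above all SP and DP libraries, which overlapped each other, and it was lower by 0.46 ± 0.09 in DP (adjusted p = 0.043) and by 0.35 in SP cells (adjusted p = 0.096). The call was lost without DN replicate 1, DN replicate 2 or DP replicate 2. Cox5a, which is in the ICB table alone, had 9.0 and 9.06 in DN, 9.46, 9.65 and 9.54 in SP and 9.53, 9.5 and 9.39 in DP cells. Its groups were apart from DN without passing the test, at 0.52 ± 0.12 in SP (adjusted p = 0.088) and 0.45 in DP cells (adjusted p = 0.093). Sdhb had 7.70 and 7.67 in DN, 8.17, 8.10 and 8.10 in SP and 8.16, 8.18 and 8.24 in DP cells, a difference of 0.50 for DP (adjusted p = 0.095). Atp5g2, an isoform of subunit c, had 5.21 and 5.52 in DN, 4.75, 5.62 and 5.20 in SP and 4.46, 4.28 and 3.73 in DP cells, with DP lowest and no call. Myeloid markers moved with DP cells in this table, 9 of 12 being higher than in DN cells with a median of 2.17. Other lists were also lowest in DN cells. Mean deviations in DN, SP and DP cells were -1.61, 0.23 and 0.42 for stroma and endothelium and -0.96, 0.62 and 0.02 for epithelium. They were -0.64, 0.09 and 0.31 for CD4 and regulatory T cells and -0.18, 0.09 and 0.02 for T cells. B cell markers were highest in DN cells (0.57, 0.08 and -0.41), and erythroid and platelet markers differed little (-0.04, 0.12 and -0.02). Their part was not tested.

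The subunits that mitochondrial DNA encodes, of which 8 of 13 were measured in the untreated table, went a different way from the nuclear members. Over weeks 2 to 6 all 8 were lower in DP than in DN cells (median -1.15) and all 8 lower in SP than in DN cells (median -1.03), and none differed between DP and SP cells. mt-Co1, the catalytic subunit of complex IV, had 8.81, 8.70 and 8.92 in Naive, 9.82, 9.47 and 9.22 in CM and 8.02, 7.96 and 8.10 in EM cells. It had lowest, median and highest values of 6.94, 7.43 and 7.98 in DP, 7.04, 7.74 and 7.95 in SP, and 8.06, 8.27 and 9.72 in DN cells. DP and SP cells were thus below Naive in all 18 libraries, and DN cells did not overlap them. The difference of mt-Co1 between DP and DN cells was -1.22 ± 0.12 (adjusted p = 1.51e-06). Against Naive cells all 8 fell in DP (median -1.31) and in SP cells (median -1.16), and 2 fell in DN cells, mt-Atp8 by 0.67 and mt-Nd6 by 1.87 (median of all 8, -0.09). In the spleen 6 fell in EM cells (median -0.68), and in CM cells 5 rose and mt-Nd6 fell by 1.38 (median 0.72). In DN cells 7 of 8 rose between week 2 and week 6 (median 1.47). The mt-Co1 means of DN cells were 8.20 at week 2, 8.23 at week 4 and 9.66 at week 6, so the rise lay in the 2 libraries of week 6. These 2 libraries also enter the pooled contrasts with DN cells. Their epithelial marker mean was 1.73, against 0.50 at week 2 and -0.22 at week 4, and its part was not tested. Against Naive cells, then, 6 of 10 nuclear members of complex IV rose and 1 fell in DP cells, while mt-Co1 fell. At week 1, 0 of 8 were called in DP or SP against DN cells. In the ICB table, where 12 of 13 were measured, mt-Nd2 was lower in DP than in DN cells by 0.77, and mt-Nd1 and mt-Nd2 were lower in SP cells by 0.94 and 1.03.

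Other genes of the pathway were read from the same fits. Of 27 measured assembly factors, which build the complexes without staying in them, 3 rose and 11 fell in DP cells against Naive (median -0.31), 3 rose and 7 fell in SP cells, and 2 rose and 7 fell in DN cells. Tmem126b, needed to assemble complex I, fell by 1.63 ± 0.18 in DP cells. Tmem70, needed for ATP synthase, fell by 0.99, and Sdhaf2, which helps to attach the flavin of Sdha, fell by 0.83. Bcs1l, which inserts the Rieske protein into complex III, rose by 1.54 and Ttc19 rose by 0.84. Of 16 genes of the citrate cycle and pyruvate dehydrogenase, 2 rose and 5 fell in DP cells (median -0.18): Mdh2 rose by 0.37 and Idh3a by 0.37, while Suclg2 fell by 0.79, Dlat by 0.61, Fh1 by 0.51, Ogdh by 0.45 and Cs by 0.26. Of 6 carriers and subunits outside the symbol rule, 2 rose in DP cells and none fell: Atpif1, the inhibitor of ATP synthase running backwards, by 1.68 ± 0.14 (adjusted p = 4.4e-09), and Higd1a by 0.68. Of 11 regulators of mitochondrial biogenesis, Tfb2m rose by 0.75 and Myc and Polrmt fell by 0.59 and 0.45 in DP cells. Polrmt is the polymerase that transcribes mitochondrial DNA, and Tfb2m is its initiation factor. These counts stand beside 47.2%, 45.2% and 36.4% of all genes called in DP, SP and DN against Naive cells. In the same order 22.2%, 23% and 18.9% of all genes were called higher and 25%, 22.2% and 17.5% lower.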

How the data were processed

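Sorted CD8+ T cells of 51 libraries were measured by 3' mRNA sequencing. Per the labels' protocols, QuantSeq FWD libraries were made from 10 ng of total RNA and read as 75 bp single ends. Per the submitters' processing notes HISAT2, HTSeq and the mm10 build were used, and no version is named. Both tables deposited by the authors hold normalized values, read here as log2 from their range and negative values; the log base is an inference and the normalization is not given in the sources used here. With no counts, depth, counting error and detection limits are unknown, and the number of libraries limits the precision. No 2 libraries held identical values.

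After each gene was centred, the rank was 32 of a possible 42 for untreated libraries and 4 of a possible 7 for ICB libraries. Residuals from the group means had rank 18 of 28 and 2 of 5. The residual degrees of freedom were therefore multiplied by 0.643 and 0.4 and the variance divided by the same. limma 3.58.1 (R 4.3.3, statmod 1.5.0) fitted group means in each table, with all groups sharing 1 spread, trend and robust options, and Benjamini-Hochberg adjustment over all genes; adjusted p below 0.05 was a call. No filter or pseudocount was used. Pooled weeks were weighted equally. The script was tested on simulated data. The main fit did not pair libraries by replicate number, and whether equal numbers mark shared mice is not known. Named in each comparison and complex were the called member of largest difference in each direction, the member of smallest p where none was called, and a fixed core with isoform pairs; others named were chosen after their values were seen, and 1 member is counted but not reported here by name. The members and lists were chosen with earlier results of these data known. Promoter windows came from RefSeq GRCm38.p6, gene spans and transcript lengths (63 of 64 members) from GENCODE M21, and plots from Python 3.11.15 with matplotlib 3.10.9. Alternatives tried were degrees of freedom, limma options, scaling, a filter on low values, a replicate block, code range, samples in the fit, week 1 and single libraries left out.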

Additional observations from a re-analysis of the deposited data

Results flagged for a closer look

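In DP week 2, the group with 4 libraries, 40 members were tested for a library that stands apart (by Dixon's critical value of gap over range), and 3 passed, and chance passes about 1 in 20. Ndufa7 had its lowest DP week 2 library at 0.744, Ndufb7 its lowest at -0.0323 and Uqcr10 its highest at 7.43.

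The difference between subsets changed between week 1 and weeks 2 to 6, by an interaction contrast in limma, for 7 members in DP against SP, 25 in DP against DN and 11 in SP against DN. That is 10.9%, 39.1% and 17.2% of the members, where 14.7%, 25.8% and 6.53% of all genes were called. For DP against SP the share of members was thus below that of the table. In DP against DN the change was 1.32 for Uqcrh, 1.06 for Cox7a2, 1.03 for Ndufa8, 0.76 for Atp5j2, 0.46 for Sdha, -0.43 for Atp5f1 and -1.26 for Uqcrb. In SP against DN it was 1.40 for Ndufa8, 1.11 for Cox7a2 and 1.01 for Atp5o. In DP against SP it was 1.19 for Atp5g1, 1.10 for Ndufa7, 0.36 for Sdha and -0.62 for Sdhb. All contrasts with DN use the same 2 DN libraries of week 1, so these values are not independent of one another.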

How the results depend on the processing

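Values are numbers of members called, at first with the count reported above in brackets; no direction was reversed. With full design degrees of freedom, counts in weeks 2 to 6 were 3 for DP against SP (0), 17 for DP against DN (6) and 14 for SP against DN (2). At week 1 they were 20 for DP against SP (11) and 24 for SP against DN (14). For the change between week 1 and later they were 16 (7), 38 (25) and 19 (11) in the order DP against SP, DP against DN, SP against DN. They were 3 for DP week 6 against week 2 (0), 2 for DN (1), 15 for EM against Naive (3), 10 for CM (3) and 28 for DN against Naive (18). Against EM they were 25 for DP (12), 28 for SP (17) and 25 for DN (11), and in ICB mice 15 (0), 31 (1) and 31 (0).

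Leaving out genes of low mean value (below 5.50 in the untreated table) kept only 15 of the 64 members. It left 1 in DP and 1 in SP against DN over weeks 2 to 6, 3, 4 and 3 at week 1, 2, 2 and 2 for the changes, and 0 for EM and 0 for CM against Naive. Against Naive it left 4, 4 and 2 for DP, SP and DN, and against EM 3, 4 and 2; of the mitochondrially encoded genes 1 of 2 was left for DN against Naive. With the code range as a term counts were 2 for DP and 1 for SP against DN in weeks 2 to 6, 9 and 6 at week 1, 8 for DN against Naive, 2 for DN against EM, and 1 for the mitochondrially encoded genes of DN against Naive. With only the compared groups in the fit they were 0 for DP against SP at week 1, 1 and 8 against DN, 7 for the change in SP against DN, 0 for DN with age, 1 for EM against Naive, 10 and 4 for SP and DN against EM, and 9 for ICB DP against DN. Quantile normalization gave 10 for DP and 5 for SP against DN in weeks 2 to 6, and a common median 4 for SP. Including week 1 gave 9 for SP against DN, and limma without trend and robust options 0 for ICB DP against DN. Beyond the construction of each alternative, the cause was not tested.

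The labels repeat replicate numbers across groups, and same-numbered libraries did not deviate together on average. The mean r was 0.01 (from -0.66 to 0.86) over 276 pairs of untreated libraries. For ICB libraries it was 0.06 (from -0.99 to 0.92) over 7 pairs. The untreated pairs mix weeks and spleen and the ICB pairs are few, so these means cannot decide whether subsets of the same week share mice. Neighbouring library codes in places span different replicate numbers, as among the Naive, CM and EM libraries, and pairing by code was not tested. With the replicate block, counts were 5 for SP against DN in weeks 2 to 6, 1 for DP with age, 6 for EM against Naive, 3 for ICB DP and 2 for ICB SP against DN; it changed no other count by over 1.5 times. Leaving out 1 library at a time gave 2 to 5 for SP against DN in weeks 2 to 6, 7 to 13, 7 to 24 and 5 to 14 for the 3 contrasts of week 1, 5 to 9, 12 to 29 and 3 to 14 for the changes, and 0 to 1 for DN with age. It gave 1 to 6 for EM and 0 to 2 for CM against Naive, 1 to 2 for the mitochondrially encoded genes of DN against Naive, 6 to 15, 11 to 20 and 3 to 12 against EM, and 0 to 3 and 0 to 1 for ICB DP and SP against DN. Against Naive it gave 15 to 26 for DP, 20 to 30 for SP and 12 to 20 for DN.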
